A study of Mus musculus with 16 samples.

Results

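Tubulin isotypes are the separate genes that encode α-tubulin and β-tubulin, the proteins that pair into the building block of microtubules. Of the 49585 genes in the count table, 10 were taken as members: the β-tubulin genes Tubb2a, Tubb2b, Tubb3, Tubb4b, Tubb5 and Tubb6 and the α-tubulin genes Tuba1a, Tuba1b, Tuba1c and Tuba4a. The list was drawn up with the measured values of these organoids in view, so every value of a member given here is a description, without a test of the list. The remaining 6 α- and β-tubulin genes of the table were not members and are counted below.

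RNA sequencing was performed on small intestinal organoids, crypt-derived cultures that hold epithelial stem cells and their progeny, from mice on a C57BL/6 background. Both genotypes carried loxP-flanked Atg16l1 alleles (Atg16l1 fl/fl), and the Atg16l1 ΔIEC organoids also carried cre under the villin promoter, which acts in intestinal epithelium. Atg16l1 encodes a protein needed to attach LC3 to autophagosome membranes. Organoids were left untreated or given IL-22, a cytokine that signals to epithelium through STAT3, at 10 ng/ml for a day. There were 4 cultures in each of the 4 groups, from 2 organoid lines a genotype, and replicates 1 and 2 of a group were the first line and replicates 3 and 4 the second. A genotype is therefore represented by 2 lines, and line and genotype cannot be told apart beyond that.

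Reads counted on genes ranged from 2135000 to 5574860 a culture. Atg16l1 itself was at 31.6 to 51.8 CPM (counts scaled to a common library size with TMM) in the fl/fl cultures and at 0.289 to 5.96 CPM in the ΔIEC cultures. Reg3g, a lectin gene induced by IL-22, was at 11.1 to 20.9 CPM without the cytokine and at 11327 to 18222 CPM with it. All 5 epithelial markers, Epcam, Cdh1, Vil1, Krt8 and Krt19, were tested and summed to between 5697 and 10731 CPM. Stromal markers had at most 11 counts for any gene in any culture, and those of neurons and glia at most 3, with Elavl4 and Sox10 at 0. Of 6 immune markers 2 were tested. They had up to 58 counts for a gene in a culture, and the 6 summed to between 9.97 and 19.0 CPM.

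Microtubules grow and shrink by adding and losing αβ-tubulin pairs, carry cargo along the length of epithelial cells and form the mitotic spindle in dividing crypt cells. Isotypes are closely alike over most of their length and differ mainly in the tail at the carboxy terminus, where glutamate, glycine and other modifications are placed and motors and severing enzymes bind. Cells also hold tubulin mRNA in check: when unpolymerized tubulin is in excess, TTC5 reads the first residues of a nascent tubulin chain on the ribosome and, through SCAPER and the CCR4-NOT deadenylase, has the mRNA degraded.

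The first 12 coding bases, which encode the stretch that TTC5 reads, are shown because they split the members by family. They are taken from GENCODE transcripts on GRCm38, and capitals mark the start codon. Tubb6 is described by its counts only.
Tubb2b: ATGcgagagatc
Tubb2a: ATGcgcgagatc
Tubb3 and Tubb4b: ATGagggagatc
Tubb5: ATGagggaaatc
Tuba1a, Tuba1b and Tuba1c: ATGcgtgagtgc
Tuba4a: ATGcgcgagtgc

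The last 72 coding bases, which encode the tail and the stop codon, are shown for Tubb2b and its closest relative Tubb2a. Capitals mark the bases that differ between them. Tubb2b lies at chr13:34127471-34127542 and Tubb2a at chr13:34074468-34074539, both exonic, on the minus strand of GRCm38.
Tubb2b: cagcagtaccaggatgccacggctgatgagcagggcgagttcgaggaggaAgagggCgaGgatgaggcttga
Tubb2a: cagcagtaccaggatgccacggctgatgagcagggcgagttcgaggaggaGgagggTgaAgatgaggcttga

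Within this stretch 3 bases differ between Tubb2b and Tubb2a. Each is the last base of a codon and leaves the encoded residue unchanged, so the encoded tails are the same over this stretch. Over the whole coding sequence, 47 of 1338 bases differ between Tubb2a and Tubb2b (96.5% identical), and 23 of 1356 between Tuba1a and Tuba1b (98.3%). Tubb2b and Tubb4b, by comparison, are 83.5% identical. Such likeness limits what short reads can assign. Of all 150-base windows of the transcript, 20.1% for Tubb2b and 27.9% for Tubb2a are found exactly in a transcript from another locus, and the share is 16.8% for Tubb4b, 37.5% for Tuba1a, 53.0% for Tuba1b and 46.7% for Tuba1c. For Tubb3, Tubb5, Tubb6 and Tuba4a it is 0. Values of Tuba1a, Tuba1b, Tuba1c, Tubb2a, Tubb2b and Tubb4b are uncertain to that extent, since reads that aligned to several places (21.5% to 24.2% of reads in a culture) were not counted.

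To set genes beside each other, levels were expressed per kilobase of exon, over all annotated exons of a gene. This scale makes no allowance for the uncounted reads that aligned to several places, so the order is uncertain to that extent. On it Tubb4b was highest, with a mean over the 16 cultures of 304 CPM per kb and a range from 254 to 349. Tubb5 followed at 174 (117 to 229), Tuba1b at 136 (88.3 to 190.2), Tuba1c at 82.2 (66.7 to 104) and Tuba4a at 43.3 (28.3 to 58.0). Tubb2b at 14.7 (5.78 to 28.9) and Tubb2a at 14.3 (5.07 to 26.3) came next, then Tuba1a at 4.31 (1.81 to 7.36), Tubb6 at 1.83 (1.01 to 3.26) and Tubb3 at 0.451 (0 to 1.25). Ranges did not overlap between Tubb4b and Tubb5 or between Tuba1c and Tuba4a, and overlapped between all other neighbours in this order. Tubb4b and Tubb5, which are used in most tissues, led the β-tubulins, and the neuronal isotype Tubb3 was close to the limit of counting.

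**Figure D1:**
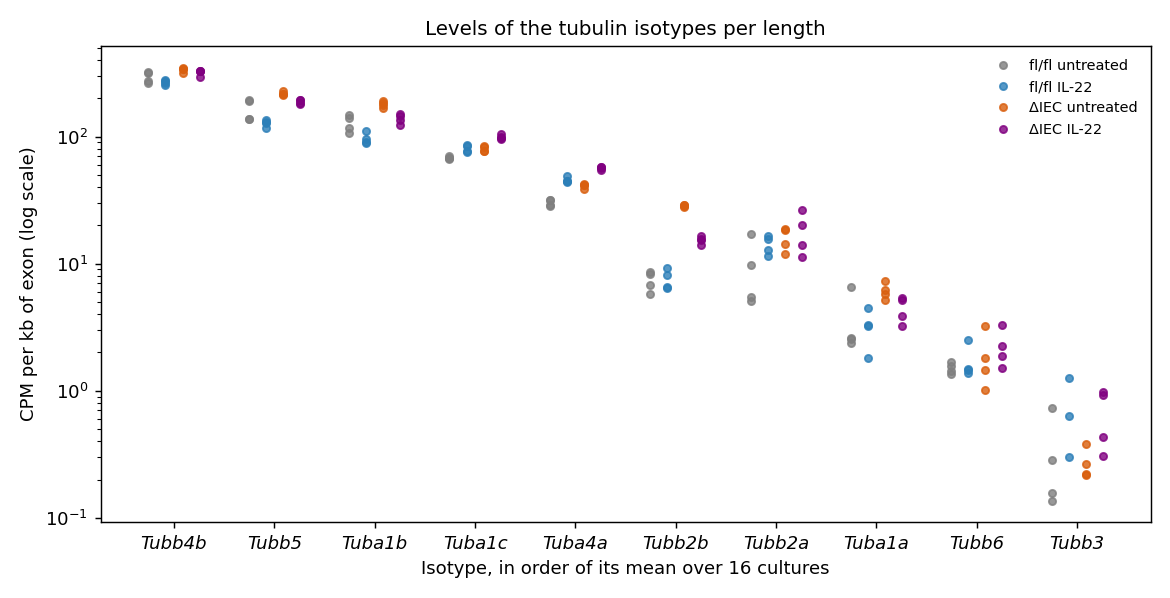
CPM per kb of exon (log scale) for each isotype in the order of its mean over 16 cultures; each point is a culture, colored by group, and the single Tubb3 value of 0 is not drawn. Levels run from 304 CPM per kb for Tubb4b down to 0.451 for Tubb3, and the ΔIEC points of Tubb2b lie above its fl/fl points.

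Tubb2b, a β-tubulin known from neuronal development, was the member with the widest separation between groups. In untreated fl/fl organoids it was at 19.9, 13.3, 19.0 and 15.5 CPM in replicates 1 to 4, and with IL-22 at 18.6, 21.03, 14.8 and 15.0 CPM. In untreated ΔIEC organoids it was at 65.8, 66.2, 63.9 and 65.2 CPM, and with IL-22 at 32.4, 35.8, 38.1 and 35.3 CPM. The fl/fl groups overlapped each other, whereas both ΔIEC groups lay above every fl/fl culture and did not overlap each other.

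The means were 16.9 ± 3.08 (SD, n = 4) and 17.4 ± 3.01 CPM in untreated and IL-22-treated fl/fl organoids and 65.3 ± 0.983 and 35.4 ± 2.33 CPM in the ΔIEC groups. In log2 fold changes, Tubb2b was higher in ΔIEC than in fl/fl organoids by 1.97 (SE 0.13, 3.91-fold) without treatment and by 1.04 (SE 0.13, 2.05-fold) with IL-22. IL-22 against untreated gave 0.05 (SE 0.14) in fl/fl and -0.88 (SE 0.12) in ΔIEC organoids, a difference of -0.93 (SE 0.18). This difference did not pass an adjusted p of 0.01 in the fit without the lines and passed it with the organoid line as a block (-0.95, SE 0.18). The share of all 12559 tested genes past that threshold was 0.0159% without and 0.446% with the block. In bulk organoids, fewer cells of a type and less RNA per cell cannot be told apart.

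Both lines of each genotype held this pattern at the level of their means. Tubb2b averaged 66.0 CPM untreated and 34.1 CPM with IL-22 in the first ΔIEC line, and 64.6 and 36.7 CPM in the second. The first fl/fl line averaged 16.6 and 19.8 CPM and the second 17.3 and 14.9 CPM, so that the fl/fl lines differed in the sign of a small difference. Counts of Tubb2b ranged from 42 to 279 a culture.

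The genes whose pattern over the 16 cultures was most like that of Tubb2b were Fabp5, Ascl2 and Pla2g4a, by the root mean square difference of log2 CPM after centering each gene on its own mean. These differences were 0.368, 0.393 and 0.412, against a spread of Tubb2b around its own mean of 0.814 and a median over 12550 genes of 0.867. Fabp5 encodes a fatty acid binding protein, Ascl2 a transcription factor of crypt stem cells and Pla2g4a a cytosolic phospholipase. Fabp5 averaged 16.5, 13.7, 38.3 and 18.9 CPM in untreated fl/fl, IL-22-treated fl/fl, untreated ΔIEC and IL-22-treated ΔIEC organoids. Ascl2 averaged 16.6, 10.99, 39.1 and 26.1 CPM in the same order. Pla2g4a averaged 8.92, 6.92, 23.4 and 21.8 CPM, and its ΔIEC groups overlapped, at 19.7 to 26.2 CPM untreated and 16.6 to 32.0 CPM with IL-22. Among the members, the closest to Tubb2b was Tuba1b at 0.574.

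Markers of other cells are given beside these values. The 5 stem cell markers summed to 384 to 611 CPM in untreated fl/fl, 229.7 to 267 CPM in IL-22-treated fl/fl, 909 to 1065 CPM in untreated ΔIEC and 355 to 495 CPM in the ΔIEC cultures given IL-22. Ascl2 is one of those 5. With IL-22, Olfm4 and Smoc2 were called lower in fl/fl and Ascl2, Axin2, Olfm4 and Smoc2 in ΔIEC organoids. These stood beside 10.2% and 7.65% of all genes called lower. Of the 5, Ascl2, Olfm4 and Smoc2 were higher in ΔIEC than in fl/fl organoids in both conditions and Lgr5 was lower with IL-22, where 3.78% of all genes were called higher untreated and 9.91% higher and 9.84% lower with IL-22. The 15 proliferation genes summed to 1555 to 2169, 1125 to 1418, 2293 to 2550 and 1848 to 2372 CPM in the same order. Of the 6 enterocyte markers, Apoa1, Apoa4, Fabp1, Sis and Slc5a1 fell with IL-22 in fl/fl and Apoa4, Sis and Slc5a1 in ΔIEC organoids by edgeR, beside 10.2% and 7.65% of all genes called lower. All 6 had an unadjusted p under 0.05 in both genotypes. Their sums lay at 3620 to 4024 CPM untreated and 1213 to 1637 CPM treated in fl/fl and at 3367 to 3933 and 1155 to 1785 CPM in ΔIEC organoids. Between untreated genotypes, the goblet cell markers Muc2 and Tff3, the Paneth cell marker Itln1 and the enteroendocrine markers Chga and Gip were lower in ΔIEC organoids, beside 5.98% of all genes, with list medians of -0.45, -0.69 and -0.75. With IL-22 the goblet markers Fcgbp, Muc2, Spdef and Tff3, the Paneth markers Defa17, Itln1 and Mmp7 and the enteroendocrine markers Chga, Chgb and Gip were lower there, beside 9.84%. The goblet sum was 1528 to 2412 CPM in fl/fl and 1174 to 1593 CPM in ΔIEC organoids without treatment. These markers were named after their values were seen, and the part of the cell types in the tubulin values was not tested.

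**Figure D2:**
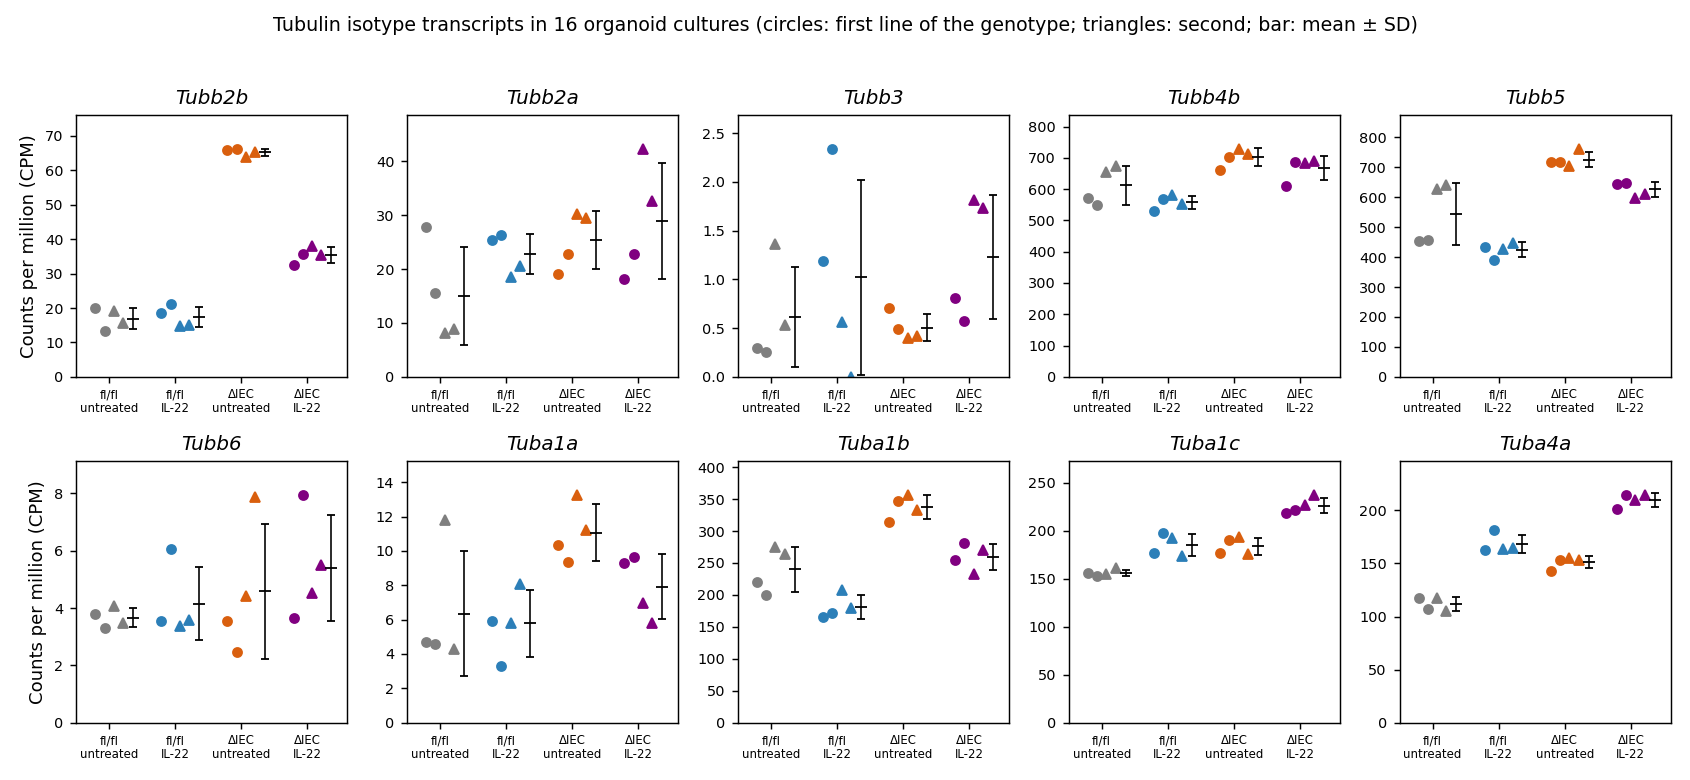
CPM of each isotype (linear axes from 0, 1 panel a gene) in the 16 cultures by group; circles are the first organoid line of a genotype and triangles the second, and the bar beside each group is the mean ± SD of its 4 cultures. Tubb2b separates untreated ΔIEC organoids (63.9 to 66.2 CPM) from all others, Tuba4a is higher with IL-22 in both genotypes, and Tubb2a and Tubb5 differ between the 2 fl/fl lines without treatment.

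Tubb2a, the neighbor and closest relative of Tubb2b, did not show that separation. It was at 27.8, 15.6, 8.16 and 8.83 CPM in untreated fl/fl and 25.3, 26.4, 18.6 and 20.7 CPM in the fl/fl cultures given IL-22. In ΔIEC organoids it was at 19.1, 22.9, 30.2 and 29.5 CPM untreated and 18.2, 22.7, 42.3 and 32.7 CPM with IL-22. All 4 groups overlapped, and the second fl/fl line was low without treatment while the second ΔIEC line was high in both conditions. With IL-22 in fl/fl organoids its log2 fold change was 0.55 (SE 0.30), short of the threshold, and 0.62 (SE 0.18) with the line as a block, past it. Without treatment ΔIEC exceeded fl/fl by 0.69 (SE 0.31), short of the threshold. That genotype difference was 1.53 without the first fl/fl line, past the threshold, and 0.21 without the second. Without the filter on low counts, both the untreated genotype comparison and IL-22 in fl/fl passed.

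Tubb5, a β-tubulin used in most dividing cells, was at 453, 456, 628 and 641 CPM in untreated fl/fl and 433, 389.8, 428 and 448 CPM in the fl/fl cultures given IL-22. In ΔIEC organoids it was at 718, 717, 703 and 761 CPM untreated and 645, 649, 599 and 611 CPM with IL-22. IL-22-treated cultures lay below untreated ones in both genotypes, and ΔIEC cultures lay above fl/fl cultures in both conditions, without overlap. The log2 fold change with IL-22 was -0.36 (SE 0.099) in fl/fl, past the threshold, and -0.21 (SE 0.099) in ΔIEC organoids, short of it, with a difference between genotypes of 0.15 (SE 0.14). The fl/fl call was lost when libraries were scaled by RLE. ΔIEC against fl/fl gave 0.41 (SE 0.099) untreated and 0.56 (SE 0.10) with IL-22, both past it. In fl/fl organoids the first line averaged 455 CPM untreated and 411 CPM with IL-22, and the second 634 and 438 CPM.

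Tubb4b, the most abundant member per kb and a subunit of ciliary and cytoplasmic microtubules, was at 571, 548, 656 and 675 CPM in untreated fl/fl and 529.8, 568, 580.5 and 553 CPM in the fl/fl cultures given IL-22. It was at 662, 704, 728 and 713 CPM in untreated and 609.6, 687, 684 and 690.5 CPM in the ΔIEC cultures given IL-22. Among IL-22-treated cultures the genotypes did not overlap, and in the other 3 comparisons the groups did. No comparison passed the threshold in the edgeR fit, and that of treated genotypes did by DESeq2, with log2 fold changes of -0.13 (SE 0.075) and -0.07 (SE 0.075) for IL-22 in fl/fl and ΔIEC and of 0.20 (SE 0.075) and 0.26 (SE 0.075) for genotype. The gene Fam166a on the other strand shares 5.80% of the exon bases of Tubb4b. It was higher in ΔIEC than in fl/fl organoids with IL-22 (0.44, SE 0.11, adjusted p = 0.00486), and its part in the Tubb4b values was not tested.

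Tubb6 and Tubb3 were sparse. Tubb6 had 9 to 28 counts a culture and lay between 2.46 and 7.95 CPM, with all 4 groups overlapping and log2 fold changes of 0.21 to 0.39 with standard errors of 0.32 to 0.35. Tubb3, which marks neurons, had 0 to 10 counts a culture. It was at 0.292, 0.255, 1.36 and 0.535 CPM in untreated fl/fl organoids and 1.19, 2.34, 0.563 and 0 CPM with IL-22. In ΔIEC organoids it was at 0.707, 0.492, 0.402 and 0.415 CPM untreated and 0.810, 0.568, 1.81 and 1.74 CPM with IL-22. Tubb3 did not pass the filter on low counts, and both untreated groups were at or under the floor of 3 counts in every culture, so no fold change is given.

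Tuba4a, an α-tubulin that lacks the encoded carboxy-terminal tyrosine of its relatives, was at 117, 107, 118 and 105 CPM in untreated fl/fl and 163, 182, 164 and 165 CPM in the fl/fl cultures given IL-22. In ΔIEC organoids it was at 143, 154, 156 and 153 CPM untreated and 201, 215, 210.0 and 214 CPM with IL-22. Every treated culture lay above every untreated culture of its genotype, and every ΔIEC culture above every fl/fl culture of the same treatment. IL-22 gave a log2 fold change of 0.59 (SE 0.068, 1.51-fold) in fl/fl and 0.47 (SE 0.066, 1.39-fold) in ΔIEC organoids, which differed by -0.12 (SE 0.095). ΔIEC against fl/fl gave 0.44 (SE 0.068) untreated and 0.32 (SE 0.066) with IL-22. All 4 of these passed the threshold.

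Tuba4a shares 37.3% of its exon bases with Stk16, a kinase gene on the opposite strand, and the strand setting of the counting is not given in the sources used here. Stk16 averaged 46.5 ± 8.37, 51.6 ± 7.11, 61.1 ± 2.20 and 77.6 ± 10.4 CPM (SD, n = 4) in untreated fl/fl, treated fl/fl, untreated ΔIEC and treated ΔIEC organoids. Its IL-22 effect was 0.16 (SE 0.13, adjusted p = 0.385) in fl/fl and 0.34 (SE 0.12, adjusted p = 0.0456) in ΔIEC organoids by edgeR. ΔIEC against fl/fl gave 0.40 (SE 0.13, adjusted p = 0.0347) untreated and 0.59 (SE 0.12, adjusted p = 0.00145) with IL-22 for Stk16. Its part in the Tuba4a values was not tested.

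Tuba1c, one of the 3 α-tubulin genes clustered on chromosome 15, was at 156, 153, 155 and 161 CPM in untreated fl/fl and 177, 197, 192 and 174 CPM in the fl/fl cultures given IL-22. It was at 177, 190.0, 193 and 176 CPM in untreated and 219, 222, 227 and 238 CPM in the ΔIEC cultures given IL-22. Treated and untreated cultures did not overlap within a genotype, nor did genotypes within a treatment, and the treated fl/fl and untreated ΔIEC groups covered the same range. IL-22 gave 0.25 (SE 0.066) in fl/fl and 0.30 (SE 0.066) in ΔIEC organoids, and genotype 0.24 (SE 0.066) untreated and 0.29 (SE 0.065) with IL-22. Of these log2 fold changes only the untreated genotype comparison was short of the threshold, which it passed by DESeq2, and both IL-22 calls were lost without the filter on low counts.

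Tuba1b, the most abundant α-tubulin per kb, was at 219.7, 201, 275 and 264 CPM in untreated fl/fl and 166, 171, 208 and 179 CPM in the fl/fl cultures given IL-22. It was at 314, 347, 357 and 332 CPM in untreated and 255, 281, 233 and 269.7 CPM in the ΔIEC cultures given IL-22. Its direction with IL-22 was opposite to that of Tuba1c and Tuba4a in both genotypes. The fl/fl groups overlapped between lines and not within either line, where the means went from 210.2 to 168 CPM and from 269.7 to 193 CPM. IL-22 gave -0.40 (SE 0.099) in fl/fl and -0.38 (SE 0.098) in ΔIEC organoids, and genotype 0.49 (SE 0.098) untreated and 0.52 (SE 0.099) with IL-22. All 4 passed the threshold, and none did with the cultures of a line summed. The IL-22 call in ΔIEC organoids was lost without either ΔIEC line. That in fl/fl organoids was lost without the second line of either genotype. Each of these IL-22 calls was also lost without some single cultures.

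Tuba1a, the α-tubulin of postmitotic neurons, was at 4.68, 4.59, 11.8 and 4.28 CPM in untreated fl/fl and 5.94, 3.27, 5.82 and 8.09 CPM in the fl/fl cultures given IL-22. It was at 10.4, 9.35, 13.3 and 11.2 CPM in untreated and 9.32, 9.66, 6.95 and 5.79 CPM in the ΔIEC cultures given IL-22. The untreated genotypes would not overlap without replicate 3 of the fl/fl group, which was at 11.8 CPM and without which their log2 difference was 1.27. The log2 fold change of ΔIEC against fl/fl was 0.88 (SE 0.30) untreated and 0.47 (SE 0.31) with IL-22, and neither passed the threshold with all cultures and the filter on low counts. The untreated comparison passed it without replicate 3 of the fl/fl group, without the second fl/fl line and without the filter. In GENCODE, the gene Gm49450 covers 26.2% of the exon bases of Tuba1a and 22.7% of those of Tuba1b on the same strand. Gm49450 was not matched to a row of the deposited counts, so ambiguity with its reads is not shown for Tuba1a or Tuba1b.

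**Figure D3:**
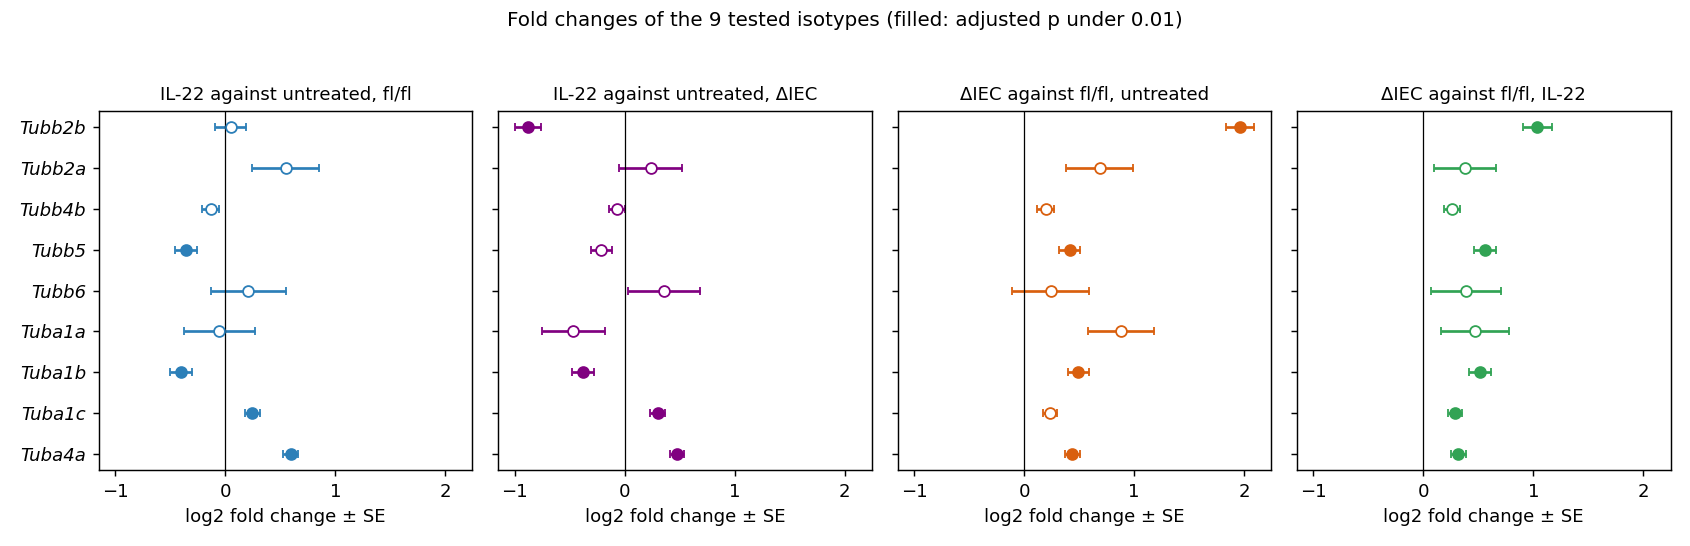
Log2 fold change ± SE (x axis) of the 9 tested isotypes in 4 comparisons of 4 against 4 cultures; filled points passed an adjusted p of 0.01 in the fit across 12559 genes. Tubb2b stands at 1.97 and 1.04 for genotype and at -0.88 for IL-22 in ΔIEC organoids, and all 9 points lie above 0 in both genotype comparisons.

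Counted over the members, 9 of 10 passed the filter on low counts, and a gene was called where its adjusted p was under 0.01. With IL-22 in fl/fl organoids 2 were called higher (Tuba4a, Tuba1c) and 2 lower (Tuba1b, Tubb5), beside 20.8% of all tested genes called (30.6% with the line as a block, where Tubb2a was the fifth). In ΔIEC organoids Tuba4a and Tuba1c were called higher and Tubb2b and Tuba1b lower, beside 17.5% of all genes (25.5% and the same count with the block). In untreated ΔIEC against fl/fl organoids 4 were called, all higher (Tubb2b, Tuba1b, Tuba4a, Tubb5), beside 9.76% of all genes called, 3.78% higher and 5.98% lower. With IL-22, 5 were higher in ΔIEC, these and Tuba1c, beside 19.8% called, 9.91% higher and 9.84% lower. All 9 fold changes were positive in both genotype comparisons, with medians of 0.44 untreated and 0.39 with IL-22, where the medians over all genes were -0.02 and 0.01. Nothing is read from these counts, since the members were listed with the values known. The fl/fl untreated cultures enter both an IL-22 and a genotype comparison, as do those of the other groups.

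Groups did not overlap for 3 members with IL-22 in fl/fl, 5 with IL-22 in ΔIEC, 5 between untreated genotypes and 6 between treated genotypes. The same held for 30.9%, 27.3%, 23.3% and 29.6% of all tested genes in these comparisons.

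Summed per kb, the α-tubulin members reached 230.0 ± 21.6 and 226 ± 12.6 CPM per kb in untreated and IL-22-treated fl/fl organoids and 307 ± 15.4 and 299 ± 12.998 CPM per kb in ΔIEC organoids (SD, n = 4). The β-tubulin members reached 476 ± 57.0 and 419 ± 6.80 CPM per kb in fl/fl and 600.3 ± 19.3 and 544 ± 20.8 CPM per kb in ΔIEC organoids. Both sums were higher in every ΔIEC culture than in every fl/fl culture of the same treatment. The α sum changed little with IL-22 while its makeup shifted. Tuba1b went from 55.4% ± 3.15 to 42.6% ± 2.47 of the α sum in fl/fl and from 58.5% ± 0.412 to 46.3% ± 1.90 in ΔIEC organoids.

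Tuba4a took 13.2% ± 1.30 of the α sum untreated and 20.2% ± 1.35 with IL-22 in fl/fl organoids, and 13.3% ± 0.305 and 19.0% ± 0.639 in ΔIEC organoids. The share of Tuba1c went from 29.9% ± 2.45 to 35.8% ± 1.54 and from 26.2% ± 0.509 to 33.2% ± 1.53. Among β-tubulins, Tubb2b held 1.56% ± 0.310 and 1.81% ± 0.330 in fl/fl and 4.75% ± 0.200 and 2.83% ± 0.113 in ΔIEC organoids. Tubb4b held 61.8% ± 1.18 and 63.8% ± 1.59 in fl/fl and 56.0% ± 1.11 and 58.7% ± 1.27 in ΔIEC organoids. Shares within a family fall for one isotype where another is higher. Without division by exon length, the mean share of Tuba1b went from 46.5% to 33.4% in fl/fl and from 49.3% to 36.8% in ΔIEC organoids. On that scale Tuba1c, at 34.3%, was above Tuba1b in treated fl/fl organoids. Tubb5, at 47.6%, was then above Tubb4b, at 46.1%, in untreated ΔIEC organoids. The limits on assigning reads to Tuba1b, Tuba1c and Tuba4a given above apply to these shares.

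**Figure D4:**
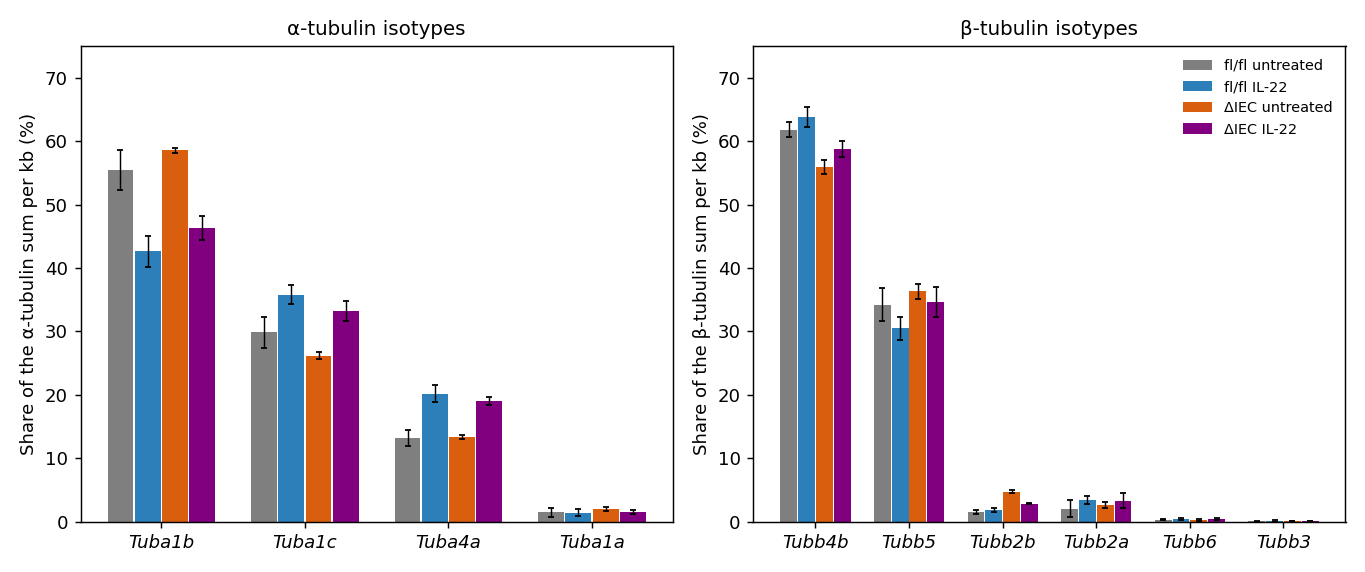
Share (%) of each isotype in the α-tubulin or β-tubulin sum of CPM per kb; bars are the mean of 4 cultures in each group and error bars the SD. Tuba1b gives way to Tuba1c and Tuba4a with IL-22 in both genotypes, and Tubb2b is largest in untreated ΔIEC organoids at 4.75%.

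The promoters of 8 members were found in the RefSeq table, each as the 250 bases before a start site, and searched on both strands. By GENCODE, the windows of Tubb3, Tubb5, Tuba1a, Tuba1b and Tuba4a hold exon bases of the gene itself. The Tuba4a window lies wholly inside that gene, so for these genes the search was not of upstream sequence alone. No window held TTCNNNGAA, the consensus of STAT factors, which 7.02% of 32851 windows hold. CCAAT, the NF-Y motif, was found 5 times before Tubb4b, in 2 places before Tubb5 and in 1 each before Tubb3, Tuba1a and Tuba1c, and 33.8% of all windows hold it. GGGCGG, the GC box, was found in the windows of Tubb2a, Tubb3, Tubb4b, Tuba1a, Tuba1b and Tuba4a (32.7% of all windows). TATAAA was found before Tubb2a, 29 bases before its start (12.4% of all windows), and TTTGAA before Tubb4b (15.99%). The window of Tuba1c, one of the isotypes higher with IL-22 in both genotypes, is shown in full, from chr15:99029641-99029890 on the plus strand of GRCm38.p6, with capitals marking the CCAAT motif read on the other strand.
Tuba1c: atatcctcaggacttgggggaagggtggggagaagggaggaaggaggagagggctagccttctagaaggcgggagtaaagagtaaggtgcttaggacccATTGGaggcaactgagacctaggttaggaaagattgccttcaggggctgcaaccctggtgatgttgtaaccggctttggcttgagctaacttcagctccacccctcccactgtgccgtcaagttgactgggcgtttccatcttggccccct

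Of 10 other tubulin genes, Tuba3b and Tubb1 had no count in any culture, Tuba3a, Tuba8, Tubb4a and Tubg2 had at most 8, and Tubal3, Tubg1, Tubd1 and Tube1 were tested. Tubg1, the γ-tubulin of microtubule nucleation, fell with IL-22 in fl/fl organoids from 33.9 ± 2.40 to 24.1 ± 2.30 CPM (-0.49 on the log2 scale, SE 0.13, adjusted p = 0.00626) and stood at 44.5 ± 2.78 and 37.0 ± 7.92 CPM in ΔIEC organoids. Of the 9 genes of the γ-tubulin complex, 1 was called with IL-22 in fl/fl organoids, a share near the 10.2% of all genes called lower: Cdk5rap2, which anchors the complex at centrosomes, fell from 25.0 ± 3.13 to 15.5 ± 2.80 CPM (-0.68, SE 0.15, adjusted p = 0.00204). In ΔIEC organoids it was at 28.2 ± 3.59 and 29.1 ± 4.13 CPM. The difference of its IL-22 effects between genotypes was 0.72 (SE 0.21, adjusted p = 0.385 by edgeR), short of the threshold. None of the 9 was called with IL-22 in ΔIEC or between untreated genotypes by edgeR, where 1 gene each had an unadjusted p under 0.05. Between treated genotypes Cdk5rap2 (0.91, adjusted p = 0.000194) and Nedd1 (0.41, adjusted p = 0.0037) were higher in ΔIEC organoids, as were Tubg1 (0.63, adjusted p = 0.00103) and Tubd1 (0.92, adjusted p = 0.00516), beside 9.91% of all genes.

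Tubulin needs the chaperonin CCT, prefoldin and dedicated cofactors to fold and pair. All 21 genes of this list were tested. IL-22 in fl/fl organoids lowered 2, the CCT subunits Cct4 (-0.34, SE 0.09, adjusted p = 0.00737) and Cct5 (-0.25, SE 0.07, adjusted p = 0.0089), where 10.2% of all genes were lower, and the list's median was -0.11 against -0.05 over all genes. With the organoid line as a block Pfdn5 was also lower (-0.40, adjusted p = 0.000422). No folding gene was called with IL-22 in ΔIEC organoids by edgeR, and 3 had an unadjusted p under 0.05. Untreated ΔIEC organoids had more Cct3 (0.45, SE 0.07, adjusted p = 0.000303) and Pfdn6, a prefoldin subunit (0.40, SE 0.10, adjusted p = 0.00968). These 2 stood beside 3.78% of all genes called higher, and the list's median was 0.12 against -0.02 over all genes. With IL-22, 6 of 21 were higher in ΔIEC organoids, beside 9.91% of all genes, and the median was 0.17 against 0.01.

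Of the 12 genes of tubulin mRNA autoregulation, IL-22 in fl/fl organoids lowered the CCR4-NOT subunits Cnot9 (65.6 ± 11.3 to 46.6 ± 3.08 CPM, -0.49 on the log2 scale, SE 0.11, adjusted p = 0.00154) and Cnot10 (-0.38, SE 0.10, adjusted p = 0.00736). These 2 stood beside 10.2% of all genes called lower, and the list's median was -0.09 against -0.05 over all genes. Ttc5 and Scaper were not called in any comparison. Cnot9 was at 85.7 ± 4.82 and 71.6 ± 5.82 CPM in untreated and treated ΔIEC organoids. No gene of the list was called with IL-22 in ΔIEC organoids or between untreated genotypes by edgeR, with 4 and 5 at an unadjusted p under 0.05. With the organoid line as a block, Cnot10 was lower with IL-22 in ΔIEC organoids too (-0.31, adjusted p = 0.00619). Between treated genotypes Cnot9 (0.61, adjusted p = 0.000274) and Cnot11 (0.47, adjusted p = 0.00305) were higher in ΔIEC organoids, beside 9.91% of all genes called higher.

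Of 29 tubulin modification genes, 17 were tested. Agtpbp1, a deglutamylase, rose with IL-22 in fl/fl organoids from 4.13 ± 1.00 to 8.44 ± 0.69 CPM (0.99, SE 0.26, adjusted p = 0.00641). It was the 1 gene of the list called there, and 10.6% of all genes were called higher. In ΔIEC organoids Agtpbp1 was at 3.65 ± 1.35 and 5.17 ± 1.66 CPM (0.55, SE 0.29, adjusted p = 0.173 by edgeR). The difference of its IL-22 effects was -0.43 (SE 0.40, adjusted p = 0.879 by edgeR). Nicn1, a subunit of the tubulin polyglutamylase complex, fell in ΔIEC organoids from 12.9 ± 2.04 to 7.02 ± 1.63 CPM (-0.89, SE 0.22, adjusted p = 0.00399). It was the 1 gene of the list called in that comparison, beside 7.65% of all genes called lower. In fl/fl organoids Nicn1 had a value of -0.67 (SE 0.22, adjusted p = 0.0219), and it passed with the organoid line as a block (-0.68, adjusted p = 0.00994). Ttll10 was lower there with the block as well (-1.14, adjusted p = 0.00272). Between treated genotypes 1 gene of the list was called, Lrrc49, higher in ΔIEC organoids (1.44, adjusted p = 0.00291), beside 9.91% of all genes called higher.

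Of 38 genes that bind, grow, shrink or sever microtubules, 27 were tested. In fl/fl organoids IL-22 raised 5, Map7d1, Tacc2, Clasp1, Map4 and Mapt, where 10.6% of all genes were called higher, and genes it lowered included Stmn1, Fignl1 and Kif2c, where 10.2% were called lower. Map7d1, a microtubule-associated protein that recruits kinesin, went from 17.5 ± 5.99 to 44.0 ± 8.07 CPM (1.30, SE 0.21, adjusted p = 8.8e-05). Stmn1, which sequesters tubulin pairs, went from 109.7 ± 27.7 to 56.1 ± 10.8 CPM (-0.96, SE 0.17, adjusted p = 0.000278). In ΔIEC organoids IL-22 raised Tacc2 (0.49, SE 0.12, adjusted p = 0.00298) and genes it lowered included Stmn1 (-0.75, SE 0.17, adjusted p = 0.00213) and Kif2a, where 9.83% of all genes were called higher and 7.65% lower. Tacc3, a spindle protein, was the single gene called between untreated genotypes, higher in ΔIEC (0.58, SE 0.15, adjusted p = 0.00993). That 1 gene of 27 is a share near the 3.78% of all genes called higher. Between treated genotypes 5 genes of the list were called higher in ΔIEC organoids and 1 lower, beside 9.91% and 9.84% of all genes. With the organoid line as a block, Camsap2 was also raised and Kif18a, Kif18b, Mapre2 and Tacc3 were lowered in fl/fl organoids, and in ΔIEC organoids Map7d1 was raised and Fignl1 lowered. The genes of this and the preceding lists that are given with the block alone or between treated genotypes alone, and Clasp1, Map4, Mapt, Kif2c and Kif2a, were named after their values were seen.

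All 15 proliferation genes were tested. IL-22 lowered 10 of them in fl/fl organoids, among them Ccnb2 (-0.77, SE 0.11, adjusted p = 3e-05) and Cdk1 (-0.69, SE 0.11, adjusted p = 6.58e-05), beside 10.2% of all genes called lower, and the list's median was -0.52. With the organoid line as a block all 15 were called lower. In ΔIEC organoids it lowered 2, Pcna (-0.42, SE 0.08, adjusted p = 0.000576) and Ccnb2 (-0.46, SE 0.11, adjusted p = 0.00278), beside 7.65% of all genes called lower, and the median was -0.23. With the block Aurkb was lower there too (-0.35, adjusted p = 0.00321). In untreated ΔIEC organoids 5 were higher than in fl/fl, Cdc20, Plk1, Mki67, Aurkb and Ccnb2, and with IL-22 13 were, beside 3.78% and 9.91% of all genes. Mki67 averaged 255 ± 40.1, 182 ± 12.7, 358 ± 33.9 and 304 ± 22.2 CPM in untreated fl/fl, treated fl/fl, untreated ΔIEC and treated ΔIEC organoids. The group means of Tubb5, Tuba1b, Tubb4b and Tuba1a stood in the same order, highest in untreated ΔIEC and lowest in treated fl/fl organoids. Those of the other members did not. The part of proliferation in the tubulin values was not tested.

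With the organoid line as a block, 39 of the pathway genes were called with IL-22 in fl/fl organoids in place of 26 and 11 with IL-22 in ΔIEC organoids in place of 7, and 1, the cyclin gene Ccnb1, differed between genotypes in its IL-22 effect (0.57, adjusted p = 0.00929). Leaving out the second fl/fl line changed the number called with IL-22 in fl/fl organoids from 26 to 5 and the number called between untreated genotypes from 8 to 22. Leaving out the second ΔIEC line changed the number called with IL-22 in ΔIEC organoids from 7 to 0.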

How the data were processed

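RNA was sequenced from 16 organoid cultures in paired ends. The authors trimmed reads with cutadapt, aligned them with TopHat2 to GRCm38 (mm10), and HTSeq gave the count of reads on each gene. The deposited values are whole-number counts without normalization, and reads aligned to several places or falling in several genes were not counted. Per the labels the kit was TruSeq RNA v2, the study's methods describe a stranded protocol, and the strand setting and annotation release of the counting are not given in the sources used here. Gene symbols, positions and transcripts came from GENCODE mouse release M21, and 49326 of 49585 genes were matched without the version of the identifier. Groups, organoid lines and cultures were taken from the sample labels. Nothing in the sources says that the 2 cultures of a line were separate beyond the well, so p-values measure the spread between cultures, which may in part be technical.

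Counts were analyzed with edgeR 4.0.16 under R 4.3.3. The filter on low counts left 12559 genes. After TMM scaling, all 4 group means were fitted together, and contrasts between them were tested by quasi-likelihood. Tests were two-sided, with Benjamini-Hochberg adjustment over all tested genes in a comparison and a threshold of 0.01. CPM used the TMM-scaled library sizes, log2 CPM a prior count of 2, and CPM per kb the summed exon length. A standard error was the size of the log2 fold change over the root of its F statistic. A group with at most 3 counts in every culture was taken to be at the floor, and that floor covers counting error only.

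The members and gene lists were chosen with earlier results of these data known. Genes outside the members were named by a rule: Atg16l1 and Reg3g, the up to 3 genes of each pathway list past the threshold with the smallest p in each IL-22 comparison and in untreated genotypes, and the 3 genes most like Tubb2b. Treated and untreated cultures of a line were paired through the line number in the labels. Deviations from group means, over tested genes, correlated at 0.263 to 0.438 in fl/fl and 0.0563 to 0.321 in ΔIEC organoids within a line, and at -0.435 to -0.218 and -0.352 to -0.0779 between lines. Lines are nested in genotype, so the block was used for the IL-22 effects and their difference only. Alternatives were DESeq2 1.42.0, limma-voom (limma 3.58.1) with a correlation within lines, another scaling, no filter, a looser threshold, summed cultures, and each culture or line left out.

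Promoter windows came from RefSeq and coding sequences from GENCODE. No entry was matched for Tubb2b or Tubb6, and protein sequences were not used here. Some results and sequences of the listed genes are not reported here.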

Additional observations from a re-analysis of the deposited data

Results flagged for a closer look

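In 4 of the 38 sets of 4 cultures tested, a single culture stood far from the other three, where chance alone gives about 1 in 20. Tubb4b was lowest in replicate 1 of IL-22-treated ΔIEC organoids, at 609.6 CPM. Tubb6 was highest in replicate 2 of IL-22-treated fl/fl organoids, at 6.08 CPM. Tuba1a was highest in replicate 3 of untreated fl/fl organoids, at 11.8 CPM. Tuba4a was highest in replicate 2 of IL-22-treated fl/fl organoids, at 182 CPM. The effect of IL-22 on Tubb2b differed between genotypes with the organoid line as a block, by -0.95 on the log2 scale (ΔIEC minus fl/fl), and this gene was among those chosen with the values known.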

How the results depend on the processing

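No member's log2 fold change past the threshold changed sign under an alternative. Tubb2b ranged from 1.86 to 2.06 for ΔIEC against fl/fl without treatment and from -0.98 to -0.82 for IL-22 in ΔIEC organoids, and Tuba4a from 0.55 to 0.62 and 0.45 to 0.50 for IL-22 in fl/fl and ΔIEC organoids. Scaling by RLE in place of TMM moved the median of all genes by 0.018 for IL-22 in fl/fl and by less in size for the other IL-22 and genotype comparisons.

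With the 2 cultures of a line summed, 2 against 2, 1 member passed in each of the 4 comparisons, Tuba4a for IL-22 in fl/fl and Tubb2b in the other three, and 0 pathway genes passed in any of them, where 26, 7, 8 and 32 had (IL-22 in fl/fl and ΔIEC, untreated and treated genotypes). At an adjusted p under 0.05, 40 pathway genes passed for IL-22 in fl/fl, 15 for IL-22 in ΔIEC and 23 between untreated genotypes. With organoid line as a replicate block, 39 pathway genes passed for IL-22 in fl/fl and 11 for IL-22 in ΔIEC, and for the difference of the IL-22 effects 1 pathway gene and 1 member (Tubb2b) did, where 0 had. Among members, the block otherwise changed only the call of Tubb2a for IL-22 in fl/fl. Limma-voom also gave 11 pathway genes for IL-22 in ΔIEC. Without the filter on low counts 16 pathway genes passed between untreated genotypes and 1 member, Tubb2b, for the difference of effects.

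Leaving out a culture or a line gave 1 to 4 members for IL-22 in fl/fl, 2 to 4 for IL-22 in ΔIEC, 2 to 6 between untreated genotypes, 1 to 6 between treated genotypes and 0 for the difference. For pathway genes the ranges were 5 to 29, 0 to 10, 1 to 22, 12 to 35 and 0 in the same order. Each lowest count of pathway genes came with a whole line left out. For IL-22 in fl/fl, Tuba4a was the sole member called without replicates 3 or 4 of the untreated or replicate 2 of the treated fl/fl group, or without the second line of either genotype. Between treated genotypes, Tubb2b was the sole member called without the first ΔIEC line. The causes of these changes were not tested. Members with under 30 counts a culture, Tubb3 and Tubb6, are limited by depth.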
